A study of Mus musculus with 6 samples.

Results

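The 9 genes examined here encode the kinase mTOR, some subunits of its complexes, and kinases and a small GTPase of the same pathway. These genes are Mtor, Rptor, Rictor, Deptor, Akt1, Akt2, Rheb, Akt1s1 and Pdpk1. They were taken by name from a table of 19423 protein-coding genes, and all 9 were found and passed the filter on low counts. RNA came from ovaries of balb/c-nude mice, hosts that lack a thymus and so most T cells, in 3 libraries of mice that bore tumors and 3 libraries of control mice, all labelled day 80. Tumor mice had been given an injection under the skin of cells named MBA-MD-231 in the cell line label; the treatment label ends in a number that grows by 1 from sample to sample, and they were taken as 1 group. What the control mice received, the age of the animals, the stage of the estrous cycle and whether each library is 1 animal were not found in the labels, so the p-values measure the spread between these libraries only. The comparison asks how these genes differ in ovaries of mice with a breast tumor, with the length of each gene's transcripts taken into account.

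mTOR works in a pair of complexes. In complex 1 it is joined by Raptor (Rptor), which brings in substrates, and is held back by PRAS40 (Akt1s1) and DEPTOR; the GTPase Rheb switches this complex on at the lysosome. In complex 2 it is joined by Rictor, and this complex phosphorylates AKT, which PDK1 (Pdpk1) also phosphorylates. AKT in turn inhibits FOXO factors and relieves the brake on Rheb. In the ovary this pathway is known for holding primordial follicles dormant or letting them start to grow.

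Bases upstream of Mtor, Rptor and Rictor are shown because these 3 genes hold the kinase and the subunit that names each complex. The windows come from RefSeq in build GRCm38.p6, end at the base before the deposited start of the gene (Rictor's window was shortened to 218 bases to end there), and lie on the plus strand at chr4:148448332-148448581 for Mtor, chr11:119602655-119602904 for Rptor and chr15:6708131-6708348 for Rictor. Capitals mark matches, on either strand, to CCAAT, the GC box GGGCGG, the ETS-type motif CCGGAAG, the E-box CACGTG or the FOXO-type motif GTAAACA.
Mtor: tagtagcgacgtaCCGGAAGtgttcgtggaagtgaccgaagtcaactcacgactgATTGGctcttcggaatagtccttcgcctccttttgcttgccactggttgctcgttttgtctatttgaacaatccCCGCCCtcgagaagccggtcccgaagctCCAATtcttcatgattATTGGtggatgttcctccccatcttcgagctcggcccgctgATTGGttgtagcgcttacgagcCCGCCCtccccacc
Rptor: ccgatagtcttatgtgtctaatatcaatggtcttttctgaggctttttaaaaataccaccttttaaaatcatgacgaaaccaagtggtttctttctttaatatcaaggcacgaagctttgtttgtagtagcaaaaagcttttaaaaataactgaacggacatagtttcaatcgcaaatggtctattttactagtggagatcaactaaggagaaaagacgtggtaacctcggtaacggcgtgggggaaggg
Rictor: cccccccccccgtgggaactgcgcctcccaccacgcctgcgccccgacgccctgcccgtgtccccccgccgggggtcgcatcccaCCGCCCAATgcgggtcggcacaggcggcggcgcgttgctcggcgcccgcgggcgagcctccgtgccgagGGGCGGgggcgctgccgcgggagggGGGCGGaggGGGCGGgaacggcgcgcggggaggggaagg
Mtor's window held 4 matches to CCAAT, 2 to GGGCGG and 1 to CCGGAAG. Rictor's held 4 matches to GGGCGG and 1 to CCAAT, which shares bases with one of the GC boxes. Rptor's held none of the 5 motifs, and neither E-box nor FOXO-type motif was found in any of the 3 windows. Among 32851 windows of 250 bases upstream of RefSeq starts, 33.8% held CCAAT, 32.7% GGGCGG, 6.91% CCGGAAG, 6.02% CACGTG and 3.17% GTAAACA. The share of G and C was 54.4% upstream of Mtor, 37.6% upstream of Rptor and 83.0% upstream of Rictor, against a median of 52.4% over those windows. A match describes letters only.

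In GRCm38.p6, as deposited, Mtor lies at chr4:148448582-148557685, Rptor at chr11:119602905-119899591 and Rictor at chr15:6708349-6800401, all on the plus strand. Deptor lies at chr15:55100065-55259273, Akt1 at chr12:112653821-112675966 and Pdpk1 at chr17:24073680-24155619, the last 2 on the minus strand in RefSeq. Akt2 lies at chr7:27591552-27640826, Akt1s1 on the same chromosome at chr7:44848961-44855421, and Rheb at chr5:24802823-24842361 on the minus strand. Values below cover all annotated transcripts of each gene.

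Libraries held between 18278614 and 18482073 estimated counts in tumor and between 18804610 and 19238900 in control, and 3 counts, the limit that a count of 0 allows, correspond to between 0.156 and 0.164 CPM, counts divided by library size; such limits cover counting error only. Genes of the oocyte, granulosa, theca and endothelium were present in every library. Summed levels of 7 adipocyte genes were 7162, 606 and 2707 CPM in tumor replicates 1, 2 and 3 and between 396 and 578 CPM in control, with none of the 6 tested members called. The sum of 6 oviduct and ciliated genes was 1935 CPM in tumor replicate 1 and 116 and 28.8 CPM in the other tumor libraries, against 421 to 1986 CPM in control. Summed oocyte genes lay between 527 and 699 CPM in tumor and between 320 and 435 CPM in control, with 4 of 8 called higher. Luteal sums lay between 2643 and 8033 CPM in tumor and between 13453 and 14896 CPM in control, with 2 of 6 called lower. Stromal sums lay between 1261 and 1634 CPM in tumor and between 2051 and 2421 CPM in control, with 2 of 4 called lower. Granulosa, theca, endothelial and macrophage sums overlapped between the groups, with 2 of 5 theca genes called higher and none of the other 3 lists' genes called. In none of these 9 lists was a gene at 0 in all libraries. The part of these differences in the results below was not tested, and in bulk tissue fewer cells of a type and less RNA per cell cannot be told apart.

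On a scale that accounts for length, the 9 genes spanned a wide range of levels. Akt1 was the most abundant transcript of the set, with deposited TPM, an abundance scaled for transcript length and depth, of 254 ± 37.2 in tumor and 263 ± 18.6 in control (SD, n = 3 each). Akt1s1 and Akt2 followed, at means over the 6 libraries of 171 and 165 TPM; they exchanged places, with Akt1s1 above Akt2 in 3 of 6 libraries. Rheb stood at 119 TPM, below Akt2 and above Rptor in all 6 libraries. Rptor averaged 30.5 TPM and Mtor 25.8 TPM, and Rptor was above Mtor in each library although their ranges over libraries overlapped. Deptor averaged 15.9 TPM and was above Pdpk1, at 13.5 TPM, in only 4 libraries. Rictor was the lowest, at 9.87 TPM, and lay below Pdpk1 in every library with overlapping ranges. Akt1 thus ranked above 97.1% of all genes in the table and Rictor above 45.5%.

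**Figure D1:**
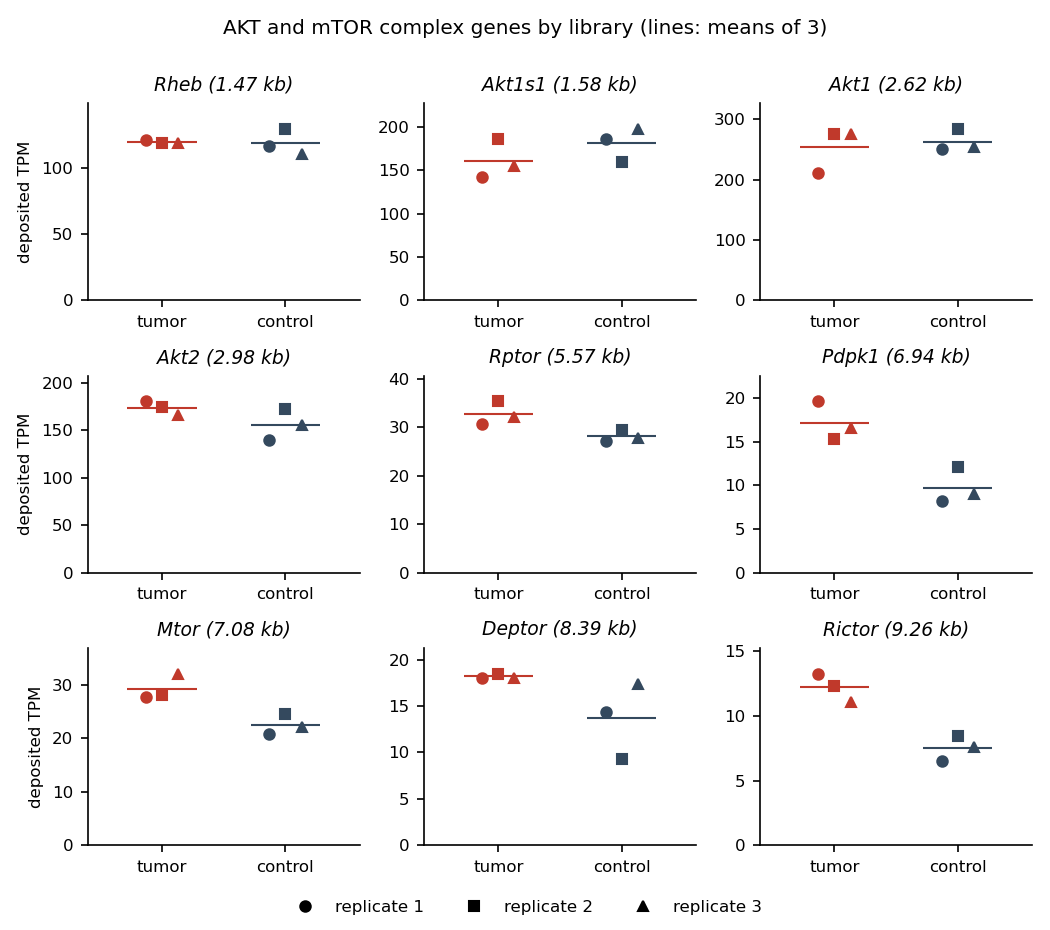
Deposited TPM of each of the 9 genes in the 3 tumor libraries (left, red) and 3 control libraries (right, dark), with symbols for the replicate number and lines for group means; panels run from the shortest gene to the longest and axes start at 0. In Rptor, Pdpk1, Mtor, Deptor and Rictor all tumor libraries stand above all control libraries on this scale, while the 4 shorter genes overlap. In CPM, the scale of the comparisons below, the groups of Deptor overlap and those of Akt1 and Rheb do not. With the length correction described below, the groups of Rptor, Mtor and Deptor overlap. Only those of Pdpk1 and Rictor then stand apart, as 27.7% of all tested genes do. The share of all genes whose groups stand apart in TPM was not computed.

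Rictor, the subunit that defines complex 2, was the only one of the 9 genes that passed the test. It had 54.4, 51.6 and 47.8 CPM in tumor replicates 1, 2 and 3, against 31.9, 37.7 and 35.5 CPM in control replicates 1, 2 and 3. Every tumor library lay above every control library. Rictor rose by 0.55 ± 0.10 (SE) on the log2 scale, with an adjusted p of 0.0386 by edgeR's quasi-likelihood test over 15787 genes. It was 1 of 9 genes called, where 7.71% of all tested genes were called, 3.80% higher and 3.91% lower, so the count does not set the 9 genes apart. The call was lost without control replicate 1 (adjusted p 0.148), control replicate 3 (0.131), tumor replicate 2 (0.103) or tumor replicate 3 (0.120), while the log2 fold change stayed between 0.51 and 0.65. In those fits 0, 5, 3 and 0 of all tested genes were called, in that order, so the loss was not particular to Rictor. The authors' deposited table lists Rictor at a log2 fold change of 0.56 with a q of 0.00110.

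Length was taken into account by removing, from each library, the smooth trend of log2 CPM on gene length, called the length correction here. Rictor, the longest of the 9 genes at an effective length of 9.26 kb, then had 47.1, 48.5 and 46.2 CPM in tumor replicates 1, 2 and 3 and 36.8, 37.6 and 39.7 CPM in control replicates 1, 2 and 3. The groups still did not overlap. Its corrected log2 fold change was 0.31 ± 0.10, with an unadjusted p of 0.0181 and an adjusted p of 0.158 by edgeR, so the call ended. With the correction, none of the 9 genes passed; 0.792% of all tested genes did, 0.361% higher and 0.431% lower. None passed with a GC correction either, added after seeing the data, or with both corrections, where 1.39% and 0.469% of all genes did. At an unadjusted p under 0.05, 3 of the 9 genes passed without the correction and 2 with it, where 31.0% and 21.0% of all tested genes did, 15.8% and 13.5% with higher levels in tumor. DESeq2 without the correction called 2 of the 9, Rictor and Pdpk1, where it called 19.4% of all genes.

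Pdpk1, the kinase that phosphorylates AKT in its activation loop, had the largest fold change of the 9 genes. It had 60.1, 47.6 and 52.8 CPM in tumor replicates 1, 2 and 3, against 30.6, 41.6 and 31.4 CPM in control replicates 1, 2 and 3. All tumor libraries lay above all control libraries, and tumor replicate 1 was the highest. That library also had the highest adipocyte, oocyte and macrophage sums and the lowest luteal, granulosa and endothelial sums of all libraries. Their part was not tested. The log2 fold change was 0.63 ± 0.16 (SE; edgeR adjusted p 0.0573), and 0.45 ± 0.13 with one of 0.126 after the length correction. DESeq2 gave an adjusted p of 0.00705 and edgeR without control replicate 2 one of 0.0293, so the call depends on the tool and on a library. Over all tested genes these fits called 3029 and 2274, against 1217 by edgeR with all libraries. Without tumor replicate 1 the log2 fold change was 0.54. In the authors' deposited table it is 0.64 with a q of 0.00837.

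Mtor, the kinase of both complexes, had 86.7, 92.4 and 107.5 CPM in tumor replicates 1, 2 and 3, against 76.3, 82.7 and 76.2 CPM in control replicates 1, 2 and 3. The groups did not overlap and tumor replicate 3 was the highest. The log2 fold change of 0.28 ± 0.10 (SE) did not pass, with an adjusted p of 0.125 by edgeR. After the length correction it was 0.11 ± 0.14 with an adjusted p of 0.716, the groups overlapped, and without tumor replicate 3 the corrected value was -0.023. The GC correction in place of the length correction gave 0.47, and both corrections together gave 0.22.

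None of the subunits and inhibitors particular to complex 1, nor Deptor, passed. Rptor, the scaffold of complex 1, had 78.2, 88.6 and 85.2 CPM in tumor replicates 1, 2 and 3, against 77.6, 78.2 and 77.6 CPM in control replicates 1, 2 and 3. Control libraries were nearly equal, and tumor replicate 1 stood just above the highest of them. The log2 fold change was 0.11 ± 0.08 (SE; edgeR adjusted p 0.387), and -0.016 ± 0.12 after the length correction. Akt1s1, the inhibitor that AKT phosphorylates, had 101.0, 133.4 and 114.4 CPM in tumor replicates 1, 2 and 3, against 154.4, 123.3 and 155.2 CPM in control replicates 1, 2 and 3. Its groups overlapped, and the log2 fold change of -0.31 ± 0.14 (SE; adjusted p 0.194 by edgeR) became -0.072 ± 0.18 with the length correction and 0.11 with the GC correction. Deptor, which binds mTOR in both complexes, had 66.8, 70.0 and 70.6 CPM in tumor replicates 1, 2 and 3, against 63.9, 37.9 and 73.5 CPM in control replicates 1, 2 and 3. Tumor libraries lay close together and control replicate 2 alone was low. Its log2 fold change was 0.24 ± 0.23 (SE; edgeR adjusted p 0.529), only 0.052 when control replicate 2 was left out, and 0.0047 ± 0.28 once length was corrected for.

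AKT kinases and Rheb showed no called difference. Akt1 had 243, 322 and 332 CPM in tumor replicates 1, 2 and 3, against 350, 361 and 338 CPM in control replicates 1, 2 and 3. Tumor libraries lay below control libraries, by far the most in tumor replicate 1. The log2 fold change was -0.23 ± 0.14 (SE; edgeR adjusted p 0.306); leaving out tumor replicate 1 gave -0.096, the length correction -0.11 ± 0.19 and the GC correction 0.078. Akt2, the form best known for insulin responses, had 239, 235 and 229 CPM in tumor replicates 1, 2 and 3, against 220, 248 and 234 CPM in control replicates 1, 2 and 3. Its groups overlapped, with a log2 fold change of 0.0048 ± 0.085 (SE) that was 0.069 ± 0.12 after the length correction and adjusted p of 0.978 and 0.795 by edgeR. Rheb had 78.5, 79.2 and 80.8 CPM in tumor replicates 1, 2 and 3, against 91.2, 91.9 and 82.1 CPM in control replicates 1, 2 and 3. These groups did not overlap, but after the length correction they did, with 77.5, 89.1 and 93.9 CPM in tumor replicates 1, 2 and 3 against 79.1, 86.6 and 78.3 CPM in control replicates 1, 2 and 3. Rheb's log2 fold change of -0.15 ± 0.08 (SE) became 0.094 ± 0.12 with the correction, and with neither did it pass (adjusted p 0.244 and 0.703 by edgeR).

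**Figure D2:**
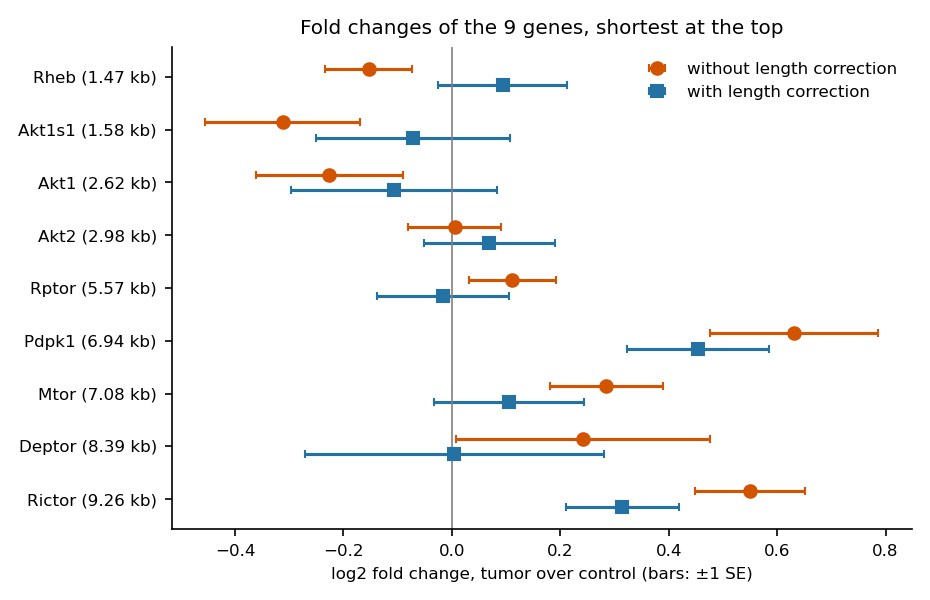
Log2 fold change of tumor over control for each gene, with bars of 1 SE on either side, without (circles) and with (squares) the length correction; genes run from the shortest at the top to the longest at the bottom. Circles lie left of 0 for Rheb, Akt1s1 and Akt1, close to 0 for Akt2 and right of 0 for the longer genes, without a steady order among these. They lie between -0.31 for Akt1s1 and 0.63 for Pdpk1, and squares between -0.11 and 0.45.

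Fold changes of the 9 genes ran with gene length before the correction. Rheb and Akt1s1, with effective lengths of 1.47 and 1.58 kb, and Akt1, at 2.62 kb, had negative log2 fold changes; Akt2, at 2.98 kb, stood at 0.0048; and the 5 genes of 5.57 kb and longer, Rptor, Pdpk1, Mtor, Deptor and Rictor, had positive ones. The same order was seen over all genes. Tested genes of 1 to 2 kb had a median log2 fold change of -0.19, those of 2 to 4 kb one of -0.023, those of 4 to 8 kb one of 0.19 and those over 8 kb one of 0.35, with 15.5% of the longest called higher and 1.10% called lower. Spearman's correlation of fold change with length was 0.37 across the 15787 genes and 0.022 after the correction, as a description, since genes of a library share its depth and base composition. Across the 9 genes it was 0.83 and 0.50. Rptor and Deptor thus lay below the uncorrected median of their own length class, and Mtor, Pdpk1 and Rictor above it. The range of the 9 fold changes narrowed, with -0.31 to 0.63 before and -0.11 to 0.45 after the correction. Their median was 0.11 before and 0.069 after it, beside medians of -0.015 and 0.058 over all tested genes. Groups did not overlap in 6 of the 9 genes before the correction and in 2, Rictor and Pdpk1, after it; over all tested genes this held for 38.1% (19.8% higher and 18.4% lower in tumor) and 27.7% (17.6% higher). Of the 6, Mtor, Rptor, Rictor and Pdpk1 were higher and Akt1 and Rheb lower in tumor.

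**Figure D3:**
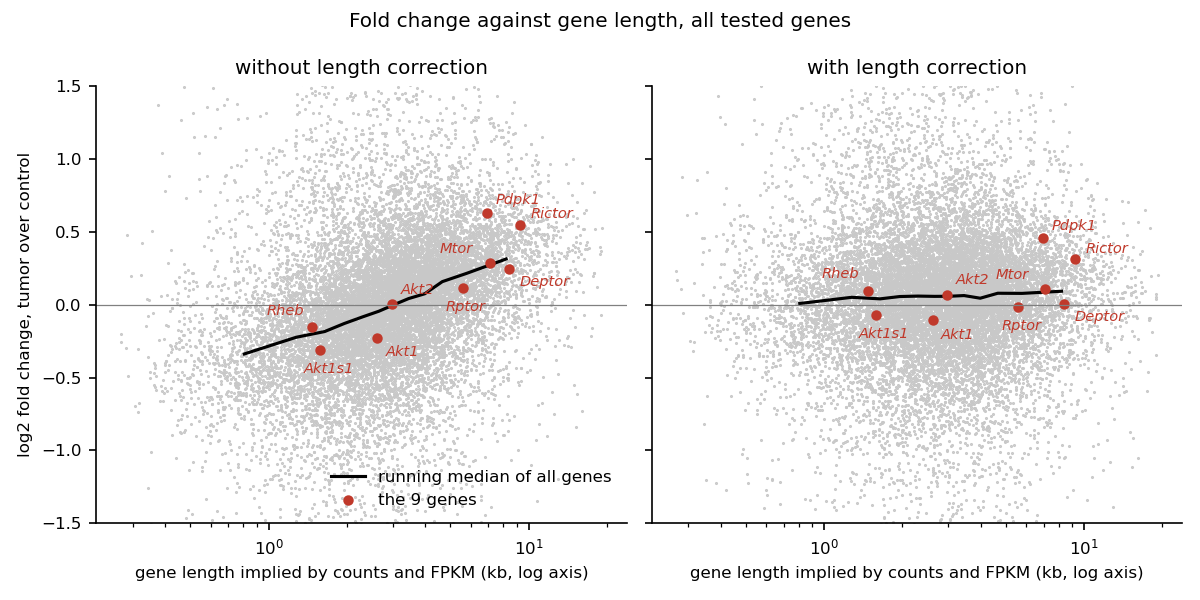
Log2 fold change of tumor over control against gene length in kb on a log axis, without (left) and with (right) the length correction, for all tested genes between 0.2 and 20 kb and within 1.5 on the log2 scale (grey), their running median (black line) and the 9 genes (red). Without the correction the line climbs with length and most of the 9 genes lie near it; with it the line is nearly flat and Pdpk1 and Rictor lie above it.

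Transcripts of 4 genes differed between the groups in their share of the gene's reads. A gene was counted when any of its transcripts had shares that did not overlap between the groups and means at least 10 percentage points apart; this held for 4 of the 8 genes with several transcripts, Mtor, Rptor, Akt1 and Pdpk1, and for 15.0% of 5311 genes in the table with several transcripts and at least 500 counts in every library. In all 4 the leading transcript met the rule, as it did in 9.19% of those genes. No test was run on the shares, which are the authors' estimates from single-end reads of 50 bases over transcripts that share most of their sequence. The genes named were chosen by this count after the values were seen.

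Akt1 showed the widest difference. Its transcript NM_001331107.1, of 2527 effective bases, took 23.8%, 49.0% and 26.4% of Akt1 reads in tumor replicates 1, 2 and 3, against 1.18%, 3.25% and 5.35% in control replicates 1, 2 and 3. The leading transcript NM_009652.3, of 2641 bases, took 65.2 ± 13.9% in tumor and 94.9 ± 2.16% in control (SD, n = 3 each). These 2 transcripts are close in length, so the way reads were divided between them changes the gene's effective length little. In numbers, NM_001331107.1 had 1114, 2957 and 1607 estimated counts in tumor replicates 1, 2 and 3, against 76.4, 219 and 336 in control replicates 1, 2 and 3. No other transcript of Akt1 reached the 10-point difference.

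Mtor reads came from 2 transcripts of unequal length. NM_020009.2, of 8550 effective bases, had 650, 845 and 913 estimated counts in tumor replicates 1, 2 and 3, against 435, 542 and 347 in control replicates 1, 2 and 3. XM_006539077.3, of 6402 bases, had 1019, 888 and 1059 in tumor replicates 1, 2 and 3, against 976, 1005 and 1069 in control replicates 1, 2 and 3. The longer transcript was higher in every tumor library and the shorter overlapped between the groups. The share of the longer was 44.7 ± 5.12% in tumor and 30.1 ± 5.31% in control (SD, n = 3 each). The effective length of Mtor implied by its counts and FPKM was 7.09 to 7.29 kb in tumor and 6.82 to 7.02 kb in control.

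Leading transcripts of Rptor and Pdpk1 had lower shares in tumor than in control. XM_011249285.3, of 4483 bases and the shortest of the 8 Rptor transcripts with reads, took 28.9 ± 6.85% of Rptor reads in tumor and 43.3 ± 2.23% in control (SD, n = 3 each). XM_017317325.2 of Pdpk1, at 6815 bases, took 13.5 ± 5.48% in tumor and 39.4 ± 9.46% in control, and the remaining reads spread over 10 other Pdpk1 transcripts, none of which met the rule. Rictor reads came from NM_030168.3 alone in 5 libraries and to 92.3% in tumor replicate 3, and Rheb reads from a single transcript. Deptor's 2 transcripts, of 8320 and 8496 bases, overlapped between groups, with 34.2% to 70.3% of reads on the leading one in tumor and 29.2% to 79.9% in control.

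**Figure D4:**
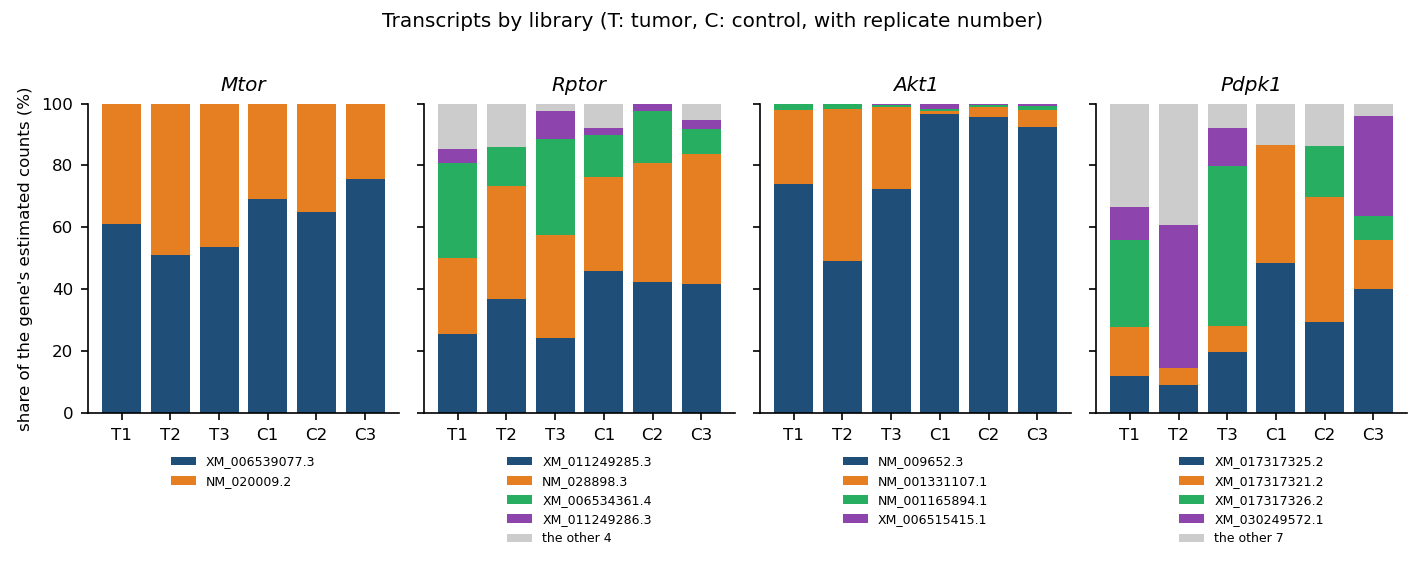
Share of each gene's estimated counts carried by its transcripts, in percent, in tumor replicates 1 to 3 (T1 to T3) and control replicates 1 to 3 (C1 to C3), for Mtor, Rptor, Akt1 and Pdpk1; colours mark the 4 transcripts with most reads and grey the others. Orange for Akt1 is near absent in control and takes 23.8% to 49.0% in tumor, and orange for Mtor is larger in each tumor library than in any control library.

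Ratios of TPM within a library, in which library size cancels, gave the balance between partners, for 3 pairs. Raptor over Rictor, the subunits of complex 1 and complex 2, was 2.31, 2.87 and 2.89 in tumor replicates 1, 2 and 3, against 4.19, 3.50 and 3.67 in control replicates 1, 2 and 3. Every tumor library was below every control library, and the mean log2 ratio was 1.42 ± 0.18 in tumor and 1.92 ± 0.13 in control (SD, n = 3 each). The difference of -0.50 had p = 0.1 in an exact two-sided permutation test, the smallest that 3 against 3 libraries allow, and 0.3 adjusted over the 3 ratios. From length-corrected values the difference was -0.34. Akt2 over Akt1 was 0.856, 0.633 and 0.604 in tumor replicates 1, 2 and 3, against 0.557, 0.606 and 0.610 in control replicates 1, 2 and 3, with tumor replicate 1 the highest, a difference in mean log2 ratio of 0.22, which was 0.067 without that library, and an exact p of 0.3. Deptor over Mtor gave a difference in mean log2 ratio of 0.074 (exact p of 1), which was -0.24 without control replicate 2.

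Beyond the 9 genes, 99 genes of the same pathway were described in 13 lists, and 98 were tested. Of these, 10 rose, 5 fell and 83 did not pass without the length correction, so that 15.3% were called, beside 7.71% of all tested genes. The 10 that rose were all longer than 4 kb. Of all tested genes, 7.52% of those of 4 to 8 kb and 15.5% of those over 8 kb were called higher. With the correction none rose, 1 fell and 97 did not pass, where 0.792% of all tested genes were called. The median log2 fold change of the 98 genes was 0.084 before and 0.12 after the correction, beside -0.015 and 0.058 over all tested genes. Each of the 15 calls was lost in at least 3 of the 6 fits that left out a library. Over all tested genes, 0 were called without control replicate 1 or tumor replicate 3. Only 5 were called without control replicate 3 and 3 without tumor replicate 2. Nearly any gene would lose its call in these fits, so the losses describe the fits rather than the 15 genes.

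Among genes of PI3K, the phosphatases that oppose it or AKT, and the receptors, 5 rose. Of 9 class I PI3K genes, Pik3cd and Pik3ca, which encode catalytic subunits, rose by 0.59 ± 0.12 and 0.46 ± 0.10 (SE) on the log2 scale, with edgeR adjusted p of 0.0424 and 0.0482. Corrected for length, they had 0.52 and 0.28 and did not pass. Of 6 phosphatase genes, Phlpp2, whose product removes phosphate from AKT, rose by 0.80 ± 0.11 (adjusted p 0.0331), and the corrected value was 0.60 (adjusted p 0.0663). The receptor genes Igf1r and Insr rose by 0.75 ± 0.14 and 0.47 ± 0.10 (adjusted p 0.0389 and 0.0465), and 4 genes of that list of 6 did not pass; corrected, Igf1r had 0.49 and Insr 0.23.

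Other subunits of the complexes and the Rheb switch did not pass. Mlst8, shared by both complexes, had a log2 fold change of 0.023, and Mapkap1, the complex 2 subunit also called SIN1, had -0.24 with an adjusted p of 0.138 by edgeR. Prr5 and Prr5l, which bind Rictor, had 0.20 and 0.24. None of the 5 genes of complex assembly passed; Telo2, a chaperone partner of mTOR-type kinases, had 0.42 and the helicase genes Ruvbl1 and Ruvbl2 -0.14 and -0.29. Tsc1, Tsc2 and Tbc1d7, which form the complex that turns Rheb off, had 0.37, -0.10 and -0.56 with adjusted p of 0.0771, 0.556 and 0.164. After the length correction these values were 0.17, -0.24 and -0.26.

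Nutrient and energy inputs gave a mixed picture. A list of 13 genes held the Rag and Ragulator genes with Slc38a9, Flcn, Fnip1 and Fnip2. Of these, Fnip1 and Fnip2, partners of folliculin, rose by 0.45 and 0.71 on the log2 scale (edgeR adjusted p 0.0464 and 0.0396). Corrected for length, they had 0.30 and 0.52 and did not pass. Lamtor2, a Ragulator subunit of 0.531 kb, fell by 0.53 on that scale and had -0.15 when corrected for length. Of 16 genes of GATOR, KICSTOR and the amino acid sensors, Nprl3, a GATOR1 subunit, fell by 0.52, while Seh1l and Mios of GATOR2 had 0.50 and 0.37 and did not pass. Of 9 energy and stress genes, Prkab2, an AMPK subunit, rose by 0.86. After the length correction Nprl3 had -0.43 and Prkab2 0.78, and neither passed. Ddit4, which encodes the stress-induced inhibitor REDD1, had 30.1, 31.7 and 25.1 CPM in tumor replicates 1, 2 and 3, against 66.6, 47.2 and 65.0 CPM in control replicates 1, 2 and 3. Ddit4 fell by 1.04 ± 0.17 on the log2 scale (SE; adjusted p 0.0355 by edgeR) and did not pass once length was corrected for (-0.82, adjusted p 0.0696). Prkag1, another AMPK subunit, had -0.31 and did not pass.

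Downstream, none of 14 substrates and effectors of complex 1 passed, with Rps6kb1, the S6 kinase gene, at 0.42 (adjusted p 0.0586 by edgeR) and Larp1, a regulator of ribosomal protein mRNAs, at 0.44. Lpin1, a lipid phosphatase gene of fat metabolism, had 1.63 with an adjusted p of 0.106 by edgeR. Its levels were 140, 30.5 and 65.7 CPM in tumor replicates 1, 2 and 3, against 23.9 to 28.3 CPM in control. In tumor these levels ran in the order of both the adipocyte and the oocyte sums, whose part was not tested. Of 11 tested AKT and complex 2 substrates, Foxo1 and Foxo3 rose, Bad and Sgk1 fell and 7 did not pass. Foxo1, a FOXO factor, had 0.95 ± 0.21 (SE), and 0.85 after the length correction, where it did not pass. Foxo3, the factor that keeps primordial follicles dormant, had 139, 135 and 119 CPM in tumor replicates 1, 2 and 3, against 86.1, 87.6 and 94.6 CPM in control replicates 1, 2 and 3. Its log2 fold change of 0.55 ± 0.09 (SE) became 0.37 ± 0.12 after the length correction (adjusted p 0.0374 and 0.151 by edgeR). Bad, a cell death gene that AKT phosphorylation silences, had -0.60 before and -0.30 after it.

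Sgk1, a kinase activated by complex 2 and PDK1, was the only one of the 98 genes called both with and without the length correction. It had 30.2, 26.9 and 26.9 CPM in tumor replicates 1, 2 and 3, against 104, 109 and 86.2 CPM in control replicates 1, 2 and 3. The groups were far apart, with the lowest control library well above the highest tumor library. The log2 fold change was -1.83 ± 0.12 (SE; edgeR adjusted p 0.00961), and -1.70 ± 0.12 with one of 0.00903 after the correction. Leaving out any library left it between -1.89 and -1.71, although the edgeR adjusted p was 0.105, 0.0586 and 0.0771 without control replicate 1, tumor replicate 2 and tumor replicate 3. In these fits 0, 3 and 0 of all tested genes were called, in that order. The values of 0.105 and 0.0771 were the smallest adjusted p of any gene in their fits. Luteal sums, given above, were lower in the same libraries, and their part was not tested.

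**Figure D5:**
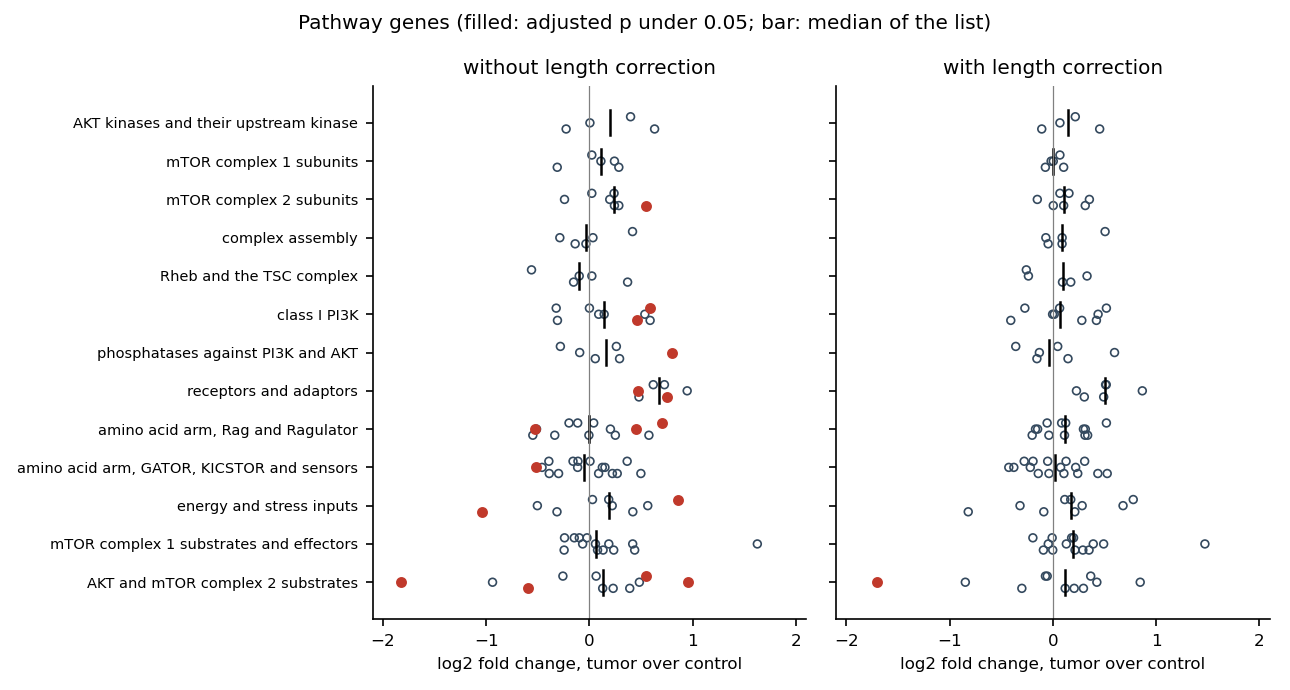
Log2 fold change of tumor over control for the genes of the 13 pathway lists, without (left) and with (right) the length correction; filled points passed an adjusted p of 0.05, open ones did not, and bars are list medians. The 9 genes stand in their lists too; with the correction only Sgk1 stays filled, at -1.70.

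Genes with profiles nearest to those of the 3 core genes were sought by the root mean square difference of centred log2 CPM over the 6 libraries, among 11926 genes. Nearest to Mtor were Nup205 (0.027), Ncor1 (0.033) and Ncoa6 (0.033). Those nearest to Rptor were Med22 (0.019), Nek9 (0.021) and Arnt (0.023). S100pbp (0.038), Zfp568 (0.038) and the predicted gene Gm51415 (0.040) were nearest to Rictor, with log2 fold changes of 0.53, 0.52 and 0.58 beside Rictor's 0.55. Such closeness follows from picking the genes by their values in the same libraries. Gm51415 had an effective length of 81.3 kb.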

How the data were processed

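Ovarian RNA of 3 tumor and 3 control libraries was sequenced as single-end reads of 50 bases, per the labels' protocols. HISAT2 2.0.4, Bowtie2 2.2.5, RSEM 1.2.12 and build GRCm38.p6 are named in the submitters' processing notes, with no role or order; whether libraries kept strand is not given there. The authors deposited estimated counts per gene and transcript, of which 39.2% of gene values above 0 were not whole, and FPKM and TPM beside them, per the file headers. The authors' own DESeq2 comparison was, per the file headers, deposited as log2 fold changes with p-values and q-values. The deposited strand equals RefSeq's for 86.7% of genes but not for Akt1 and Pdpk1, so strands were taken from RefSeq. A further 18 per-sample columns, which repeat gene values, were not used.

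Counts were rounded; genes were kept by filterByExpr and scaled by TMM factors (0.962 to 1.054) in edgeR 4.0.16 under R 4.3.3. Tumor was compared with control by its quasi-likelihood F test (robust, no term but group), with Benjamini-Hochberg adjustment over 15787 genes at 0.05. SE was taken as the absolute log2 fold change over the square root of F; CPM are TMM-normalized, but marker sums use library totals. Effective gene length was that implied by a gene's counts and FPKM. The length correction was an offset from natural splines with 4 degrees of freedom, fitted per library to log2 CPM (prior count 2) less the gene's mean; the GC correction used GENCODE M21 transcripts, matched for 96.3% of tested genes. The test with and without the length correction was tried on simulated data; the GC correction was not. DESeq2 1.42.0 and limma 3.58.1 gave alternatives. No 2 libraries agreed within sampling noise (chi-square of at least 12.6 per degree of freedom). All 9 genes were named, and from each pathway list up to 3 others with the smallest p, some of which are not reported here; Foxo1 was named outside this rule because it was called. For Mtor, Rptor and Rictor, the 3 nearest genes with average log2 CPM of at least 3 were named. The 9 genes, lists and tests were chosen with earlier results of these data known.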

Additional observations from a re-analysis of the deposited data

How the results depend on the processing

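Over 22 alternatives, the fold changes of Rictor and Pdpk1 stayed positive in all. Rictor lost its call in 16. Among these were the length correction (0.31), limma-trend on log2(FPKM + 1) (0.50), the GC correction (0.41) and both corrections (0.18), the last 2 added after seeing the data. Both fits with a replicate block and 10 of 12 fits without a library, 6 of them length-corrected, made up the rest. Over all 12 fits without a library, called or not, Rictor's log2 fold change ran from 0.29 to 0.65. Pdpk1 passed with DESeq2 (0.64) and ran from 0.41 to 0.83 without single libraries. Signs turned with the length correction for Rptor (-0.016) and Rheb (0.094), with the GC correction for Akt1 (0.078) and Akt1s1 (0.11), and with both for Akt1 (0.074), Akt1s1 (0.19) and Deptor (-0.029); the log2 ratio of Deptor over Mtor was -0.017 from length-corrected values. Over the fits without a library, with and without the length correction, Mtor ran from -0.023 to 0.37, Rptor from -0.068 to 0.16, Deptor from -0.26 to 0.48, Akt1 from -0.31 to 0.074, Akt2 from -0.018 to 0.12, Rheb from -0.17 to 0.17, Akt1s1 from -0.42 to 0.081 and the ratio of Deptor over Mtor from -0.24 to 0.28.

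Of the 9 genes 1 was called, and 0 with the length, GC or both corrections or limma-trend, 2 with DESeq2 and 0 to 2 without single libraries. All genes called numbered 1217, but 125 with the length correction, 219 with the GC correction, 74 with both, 3029 with DESeq2 and 0 to 2605 without single libraries (uncorrected, 0 by edgeR without tumor replicate 3 or control replicate 1, where 3761 and 3137 had an unadjusted p under 0.05, and 2605 without tumor replicate 1). Of the other pathway genes 15 were called, but 1, 3, 1 and 34 in these 4 alternatives and 0 to 26 without single libraries. Library totals without TMM factors gave 975 higher and 614 lower, against 600 and 617. Same-numbered libraries had correlated deviations of 0.24, -0.21 and 0.53 for numbers 1, 2 and 3, and differently numbered ones from -0.56 to 0.35. These values cannot decide whether the numbers mark pairs, since deviations from a mean of 3 libraries depend on each other. The numbers were taken as names because no block was found in the labels. The replicate block left 0 genes called over all genes (4233 at an unadjusted p under 0.05; edgeR), 0 of the 9 and 0 pathway genes, with Rictor at 0.55 (adjusted p 0.10). With block and length correction 5, 0 and 0 were left, with Rictor at 0.31, Rptor at -0.021 and Rheb at 0.091. The causes were not tested. All 9 genes lay far above the level of 3 counts, so the spread between 3 libraries limits these comparisons more than depth does.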
